A study of Homo sapiens with 4 samples.

Results

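The genes of HLA class I and class II antigen presentation were followed in 4 RNA sequencing libraries of 2 human thyroid cancer cell lines. The set was given as a list of 36 gene symbols, and each symbol matched 1 Ensembl identifier of the deposited table, so that 36 of its 58884 genes are described here. The list holds 6 class I chains, 7 genes of peptide transport and loading, 7 of peptide generation, 6 class II chains, 5 of class II maturation and 5 of transcription, and 18 of the 36 genes lie on chromosome 6, which carries the major histocompatibility complex. The libraries were 8505C cells transfected to overexpress CRABP1, 8505C cells with the empty vector, FTC-133 cells transfected to overexpress CRABP1, and FTC-133 cells with the empty vector, 1 library each. 8505C derives from an anaplastic and FTC-133 from a follicular thyroid carcinoma, and CRABP1 is a cytoplasmic retinoic acid binding protein. The labels do not say whether the transfected cells were clones or pools, and the design asks what CRABP1 does to gene expression in each line.

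Class I molecules sit on nearly all nucleated cells and show peptides from inside the cell to CD8 T cells and natural killer cells. Proteasomes cut the peptides, the TAP transporter moves them into the endoplasmic reticulum, aminopeptidases trim them, and a loading complex of tapasin, calreticulin and PDIA3 places them on a heavy chain paired with beta-2-microglobulin. Class II molecules show peptides from the endosome to CD4 T cells and are normally restricted to professional antigen presenting cells, but many cells make them after exposure to interferon gamma, which acts on them through the factor CIITA. NLRC5 is the class I counterpart of CIITA, and both work with the RFX proteins and NF-Y on the promoters of HLA genes.

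Promoter sequences are shown for 5 members that stand for the response patterns described further on. HLA-B, B2M and TAPBP were lower with CRABP1 in 8505C and higher in FTC-133, CD74 was more than 2-fold higher in FTC-133, and CALR was lower in both lines. The sequences are RefSeq windows on GRCh38.p14 that run from 250 bases before to 50 bases after an annotated start, written 5′ to 3′ on the strand of the gene. Capitals mark matches on either strand to the core of the interferon-stimulated response element (GAAANNGAA), the gamma-activated sequence (TTCNNNGAA) or the CCAAT box (CCAAT), where N is any base.
HLA-B, chr6:31357130-31357429, minus strand: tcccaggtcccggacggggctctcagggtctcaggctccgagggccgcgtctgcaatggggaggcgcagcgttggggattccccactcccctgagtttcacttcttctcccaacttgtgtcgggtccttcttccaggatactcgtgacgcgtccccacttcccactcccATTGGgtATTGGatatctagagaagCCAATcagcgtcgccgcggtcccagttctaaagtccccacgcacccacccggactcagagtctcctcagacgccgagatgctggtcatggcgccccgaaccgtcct
B2M, chr15:44711267-44711566, plus strand: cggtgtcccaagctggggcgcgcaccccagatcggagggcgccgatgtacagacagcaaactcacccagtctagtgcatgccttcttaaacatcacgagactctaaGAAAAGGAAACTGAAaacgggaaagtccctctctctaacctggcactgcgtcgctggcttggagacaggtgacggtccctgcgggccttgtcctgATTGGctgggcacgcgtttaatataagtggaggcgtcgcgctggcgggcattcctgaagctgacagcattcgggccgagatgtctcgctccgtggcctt
TAPBP, chr6:33314029-33314328, minus strand: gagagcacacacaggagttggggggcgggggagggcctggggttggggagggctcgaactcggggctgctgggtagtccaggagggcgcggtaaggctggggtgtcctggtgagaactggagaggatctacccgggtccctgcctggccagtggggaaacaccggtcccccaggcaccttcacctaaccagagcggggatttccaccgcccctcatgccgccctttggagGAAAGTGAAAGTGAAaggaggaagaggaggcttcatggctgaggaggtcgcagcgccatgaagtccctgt
CD74, chr5:150412861-150413160, minus strand: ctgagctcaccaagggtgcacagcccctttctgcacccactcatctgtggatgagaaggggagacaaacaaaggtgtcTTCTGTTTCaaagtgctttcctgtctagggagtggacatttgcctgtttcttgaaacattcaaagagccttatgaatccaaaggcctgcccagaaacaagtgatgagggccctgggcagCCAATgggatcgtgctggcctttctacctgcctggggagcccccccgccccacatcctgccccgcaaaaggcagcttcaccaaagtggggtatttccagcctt
CALR, chr19:12938359-12938658, plus strand: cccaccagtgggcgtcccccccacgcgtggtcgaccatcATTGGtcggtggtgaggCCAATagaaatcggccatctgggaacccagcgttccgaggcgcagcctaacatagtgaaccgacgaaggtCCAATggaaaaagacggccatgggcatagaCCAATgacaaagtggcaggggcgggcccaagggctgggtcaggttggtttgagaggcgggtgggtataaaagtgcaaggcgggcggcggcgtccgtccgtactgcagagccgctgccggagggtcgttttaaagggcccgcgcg

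The B2M window held 2 overlapping matches to the response element core, starting at bases 107 and 113 of the window, and the TAPBP window held 2 at bases 231 and 237. CD74 had 1 such match at base 79 and a CCAAT box at base 198. HLA-B had 3 CCAAT boxes and CALR had 4, and neither window held the response element core in this exact form. RefSeq windows were found for 30 of the 36 members, 45 windows in all, some of them overlapping starts of 1 gene. The response element core was in 16 of the 45 windows (35.6%), against 8.11% of all 35116 promoter windows. The gamma-activated sequence was in 3 of the 45 (6.67%), against 7.66% of all, and the CCAAT box in 22 (48.9%), against 34.6% of all. TAP1 and PSMB9, which encode a transporter subunit and an immunoproteasome subunit, lie head to head on opposite strands. In TAP1, 1 window held 2 response element matches at bases 118 and 124. The other TAP1 window and the PSMB9 window held no such match. These matches describe letters in fixed windows, not bound sites.

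The deposited values are TPM, in which gene length is taken out and every library sums to 1000000. Multiplied by exon length, low values came in steps of a single read, which gave between 19174544 and 20331540 reads per library. Intervals below are 95% Clopper-Pearson intervals of a TPM ratio from these recovered reads, and they cover counting error only, since no group has a replicate and the labels do not name separate cultures. CRABP1 itself was at 537 TPM in 8505C with CRABP1 and 0 TPM in 8505C with vector, and at 385 TPM in FTC-133 with CRABP1 and 0 TPM in FTC-133 with vector. Of the thyroid markers, PAX8 was at 0.161 and 0.240 TPM in 8505C and at 143 and 100 TPM in FTC-133, with CRABP1 and vector in that order, while the epithelial keratin KRT8 was at 496 and 564 TPM in 8505C and at 87.9 TPM with CRABP1 and 88.0 TPM with vector in FTC-133. Other epithelial markers went the other way, with EPCAM at 0.235 and 0.546 TPM in 8505C and 5.87 and 6.13 TPM in FTC-133, and CDH1 had no read in 8505C and at most 0.241 TPM in FTC-133. A list of 13 leukocyte markers summed to 30.2 and 58.8 TPM in 8505C with CRABP1 and with vector, of which CD14 alone gave 28.6 and 56.5 TPM. In FTC-133 the list summed to 8.84 TPM with CRABP1 and 8.35 TPM with vector, mostly from ITGAX (4.77 and 3.22 TPM), CSF1R (2.35 and 2.995 TPM) and CD79A (1.13 and 0.978 TPM). The pan-leukocyte gene PTPRC stayed between 0.020 and 0.194 TPM, and the B cell gene MS4A1 and the macrophage gene LYZ had no read in any library. The part of these markers in the results was not tested. Fewer cells making a transcript and less of it per cell cannot be told apart in such bulk RNA.

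**Figure D1:**
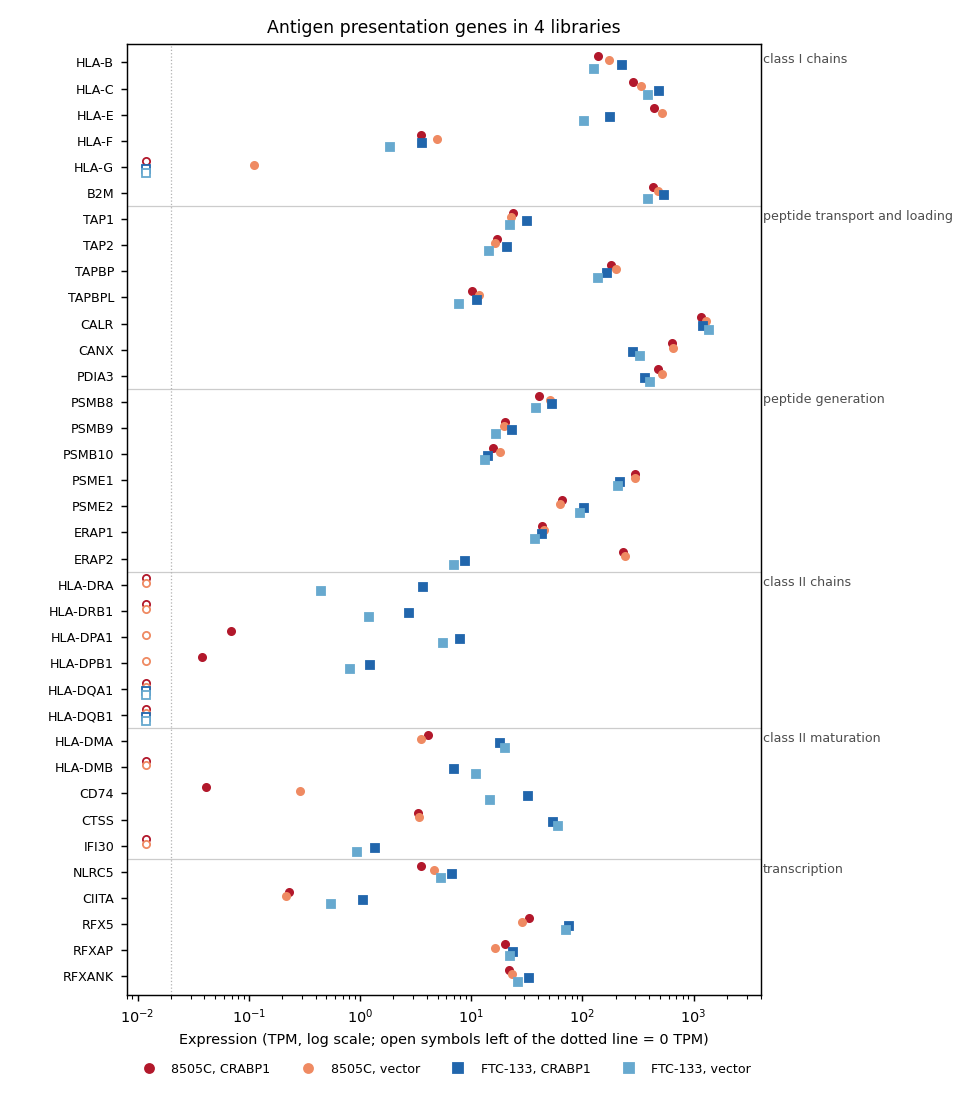
Expression of the 36 antigen presentation genes in TPM on a log scale, 1 symbol per library, grouped by role, with open symbols for 0 TPM. Class II chains reach at most 0.0686 TPM in 8505C and at most 8.01 TPM in FTC-133, whereas HLA-B, HLA-C and B2M lie above 100 TPM in all 4 libraries.

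With CRABP1, most antigen presentation genes were lower in 8505C and most were higher in FTC-133. A gene counts as measured in a line when its libraries average 1 TPM or more, and as past 2-fold when log2(TPM + 1) differs by 1 or more. By these rules, 8 of 25 members were higher and 17 lower with CRABP1 in 8505C, with a median difference of log2(TPM + 1) of -0.10. Over all 17561 genes measured, 54.7% were higher and 45.3% lower, with a median of 0.02. In FTC-133, 26 of 32 members were higher and 6 lower, with a median difference of 0.30. Over all 19899 genes, 57.8% were higher and 42.2% lower, with a median of 0.06. The 26 include HLA-DRA, HLA-DPB1 and IFI30, which reached 1 TPM on average only through the FTC-133 library with CRABP1 and so had to count as higher. In 8505C, 0 of 25 members passed 2-fold in either direction, where 3.7% of all measured genes were higher and 4.07% lower by that rule. In FTC-133, 2 of 32 members, HLA-DRA and CD74, were higher by 2-fold and 0 lower, where 6.02% of all measured genes were higher and 4.92% lower. Counting only measured protein-coding genes whose pair of libraries held 20 reads or more, 0.241% were 2-fold higher and 0.5% lower in 8505C, and 2.06% higher and 1.46% lower in FTC-133. The count of members past 2-fold is near the share of all measured genes and is no result about the members, whose differences were mostly smaller than 2-fold. Counting intervals lay wholly above a ratio of 1 for 2 members and wholly below it for 12 in 8505C, and above it for 20 and below it for 5 in FTC-133. Of all genes measured with a known length, 17.8% had an interval above 1 and 12.7% below 1 in 8505C, and 25.8% above 1 and 16.5% below 1 in FTC-133. Of the protein-coding genes with 20 reads or more, 23.3% lay above and 16.1% below in 8505C, and 33.9% above and 22% below in FTC-133. An interval narrows with the number of reads, and these shares were not matched to the levels of the members. Of the 25 members measured in both lines, 9 had an interval below 1 in 8505C and above 1 in FTC-133, against 4.59% of all genes measured in both lines and 5.89% of the protein-coding ones. The reverse pattern was seen in 0 members, against 4.65% of all those genes and 6.13% of the protein-coding ones.

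**Figure D2:**
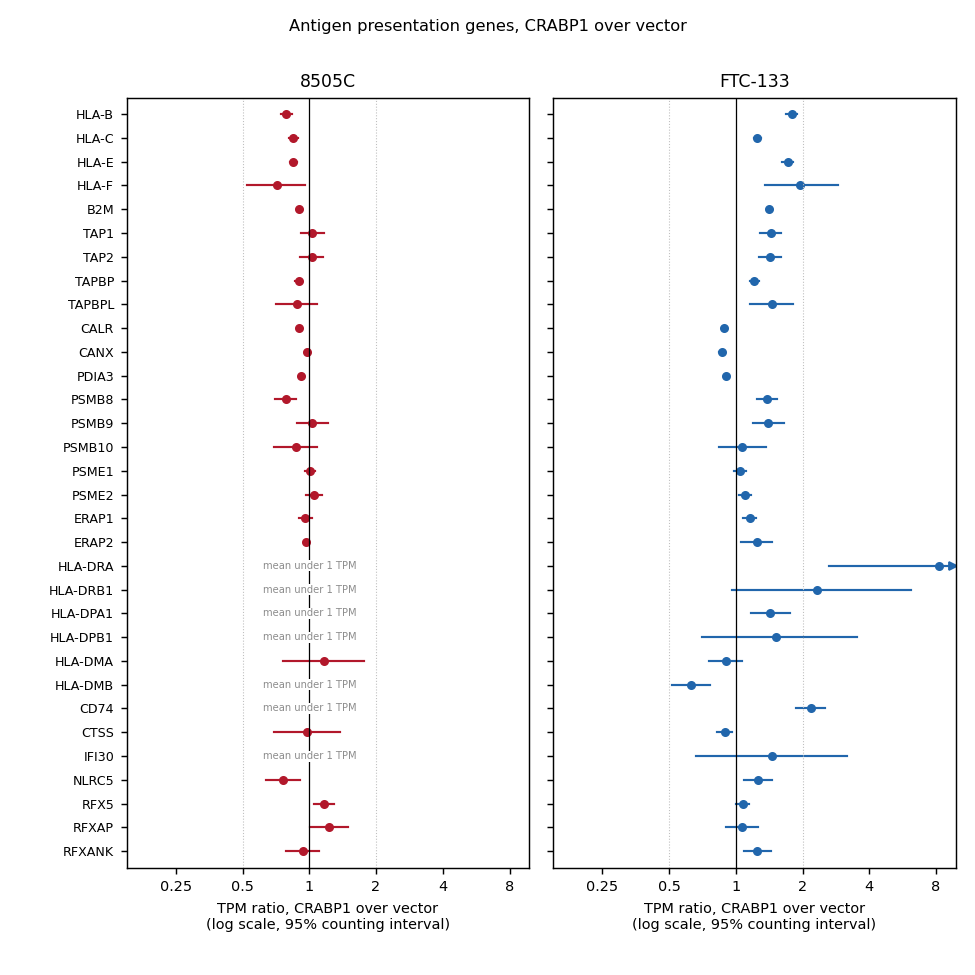
TPM ratio of CRABP1 over vector on a log scale for the members measured in each line, 8505C on the left and FTC-133 on the right, with 95% counting intervals as bars, an arrow where a bar leaves the axis and dotted lines at 2-fold. All 5 class I chains shown lie left of 1 in 8505C and right of 1 in FTC-133, and CALR, CANX and PDIA3 lie left of 1 in both.

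All 5 measured class I chains were lower with CRABP1 in 8505C and higher in FTC-133, with intervals that excluded 1 in each case. HLA-B, a classical heavy chain on chromosome 6 (GRCh38, 31269491 to 31357188, minus strand, GENCODE 29), was at 137 TPM with CRABP1 and 174 TPM with vector in 8505C, and at 225 TPM with CRABP1 and 126 TPM with vector in FTC-133. Its ratio was 0.787 (0.743 to 0.833) in 8505C and 1.78 (1.69 to 1.88) in FTC-133. The annotated span of HLA-B reaches into HLA-C (31268749 to 31272130), and 35 of its 3051 exon bases are shared with HLA-C. The FTC-133 library with CRABP1 had the highest HLA-B level of the 4, and the FTC-133 library with vector the lowest. HLA-C, the other classical chain listed, was at 288 and 340 TPM in 8505C and at 491 and 392 TPM in FTC-133, with CRABP1 and vector in that order, for ratios of 0.846 (0.809 to 0.884) and 1.25 (1.21 to 1.30). HLA-E, which presents leader peptides of other class I chains to natural killer cell receptors, was at 443 TPM with CRABP1 and 523 TPM with vector in 8505C, and at 177 TPM with CRABP1 and 103 TPM with vector in FTC-133. HLA-E thus had its CRABP1 ratio below 1 in 8505C (0.847, 0.820 to 0.875) and above 1 in FTC-133 (1.71, 1.61 to 1.82), while both 8505C libraries lay above both FTC-133 libraries.

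The rare nonclassical chain HLA-F was at 3.56 and 4.97 TPM in 8505C with CRABP1 and vector, and at 3.65 and 1.87 TPM in FTC-133. From about 78 and 110 reads its ratio was 0.718 (0.525 to 0.959) in 8505C, and from about 84 and 44 reads it was 1.95 (1.35 to 2.90) in FTC-133. HLA-G, which is best known from the placenta, had 1 read in 8505C with vector and 0 in the other libraries. The light chain B2M (chromosome 15, 44711487 to 44718877, plus strand) was among the most abundant members, at 432 TPM with CRABP1 and 479 TPM with vector in 8505C, and at 548 TPM with CRABP1 and 388 TPM with vector in FTC-133. The B2M ratio was 0.902 (0.881 to 0.923) in 8505C and 1.41 (1.38 to 1.44) in FTC-133, where its rank among all genes was 143 with CRABP1 and 211 with vector. The 5 heavy chains together summed to 872 TPM with CRABP1 and 1043 TPM with vector in 8505C, and to 897 TPM with CRABP1 and 624 TPM with vector in FTC-133. In FTC-133, HLA-B was at 0.458 of the HLA-C level with CRABP1 (0.440 to 0.477) and at 0.322 with vector (0.305 to 0.338). The intervals of this quotient do not overlap, but they cover counting error only, and the difference was not tested. In 8505C that quotient was 0.477 (0.452 to 0.504) with CRABP1 and 0.513 (0.489 to 0.538) with vector. These intervals overlap, which does not show that the quotient stayed the same, and the difference was not tested.

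Of the 7 genes of peptide transport and loading, 2 were higher and 5 lower with CRABP1 in 8505C. In FTC-133 the 4 with dedicated class I functions were higher and the 3 general chaperones lower. TAP1 and TAP2, the subunits of the peptide transporter, had ratios of 1.03 (0.917 to 1.16) for TAP1 and 1.03 (0.909 to 1.16) for TAP2 in 8505C, with intervals that include 1. In FTC-133 they were at 31.9 and 20.9 TPM with CRABP1 and at 22.2 and 14.6 TPM with vector, for ratios of 1.43 (1.29 to 1.60) for TAP1 and 1.43 (1.27 to 1.60) for TAP2. Tapasin, encoded by TAPBP, bridges TAP and the heavy chain, and was at 181 TPM with CRABP1 and 202 TPM with vector in 8505C, and at 168 TPM with CRABP1 and 138 TPM with vector in FTC-133. TAPBP had ratios of 0.894 (0.859 to 0.930) in 8505C and 1.21 (1.16 to 1.27) in FTC-133, and the related peptide editor TAPBPL 0.876 (0.707 to 1.08) in 8505C and 1.45 (1.16 to 1.82) in FTC-133.

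The chaperones of the loading complex also fold many other glycoproteins, and they were lower with CRABP1 in both lines. Calreticulin, encoded by CALR, was the most abundant member, at 1167 TPM with CRABP1 and 1297 TPM with vector in 8505C, and at 1208 TPM with CRABP1 and 1371 TPM with vector in FTC-133. Its ratios were 0.900 (0.881 to 0.920) and 0.881 (0.864 to 0.900) in 8505C and FTC-133. The ratio of calnexin (CANX) was 0.976 (0.957 to 0.996) in 8505C and 0.864 (0.840 to 0.888) in FTC-133, and that of the oxidoreductase PDIA3 was 0.921 (0.897 to 0.946) in 8505C and 0.907 (0.880 to 0.934) in FTC-133. CALR, CANX and PDIA3 were the only members whose intervals lay below 1 in both lines.

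For peptide generation, 3 of 7 members were higher and 4 lower with CRABP1 in 8505C, and all 7 were higher in FTC-133, where PSME1 turned to -0.0016 on the log2(TPM + 1) scale after median-ratio scaling. In 8505C the direction of PSME1 also turned, to -0.018, with that scaling. The immunoproteasome subunit PSMB8 was at 40.4 TPM with CRABP1 and 51.6 TPM with vector in 8505C (0.783, 0.703 to 0.871), and at 53.3 TPM with CRABP1 and 38.4 TPM with vector in FTC-133 (1.39, 1.25 to 1.54). PSMB9 had a ratio of 1.03 (0.880 to 1.21) in 8505C, and was at 23.3 TPM with CRABP1 and 16.6 TPM with vector in FTC-133 (1.40, 1.198 to 1.64). PSMB10 ratios, 0.870 (0.693 to 1.09) in 8505C and 1.07 (0.838 to 1.37) in FTC-133, had intervals that include 1. PSMB8 replaces PSMB5, PSMB9 replaces PSMB6 and PSMB10 replaces PSMB7 in the immunoproteasome, so each was set against its counterpart on the TPM scale. PSMB8 stood at 30.6% of PSMB5 with CRABP1 (27.7 to 33.7) and 41.3% with vector (37.6 to 45.2) in 8505C. The same share was 35.0% with CRABP1 (32.1 to 38.2) and 23.7% with vector (21.6 to 26.1) in FTC-133. PSMB9 stood at 16.5% of PSMB6 with CRABP1 and 15.5% with vector in 8505C, and at 17.4% with CRABP1 (15.4 to 19.5) and 12.99% with vector (11.3 to 14.9) in FTC-133.

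**Figure D3:**
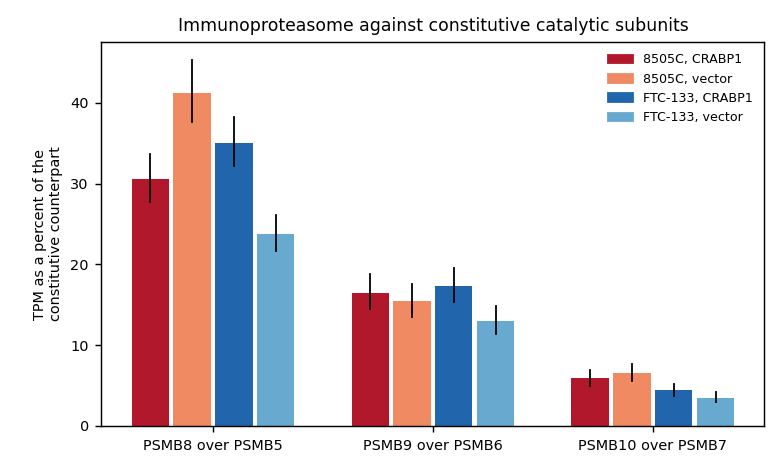
TPM of each immunoproteasome catalytic subunit as a percent of the TPM of the constitutive subunit it replaces, 1 bar per library, with 95% counting intervals as lines. The PSMB8 share is lower with CRABP1 in 8505C (30.6% against 41.3%) and higher with CRABP1 in FTC-133 (35.0% against 23.7%).

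The proteasome activator subunits PSME1 and PSME2 differed little with CRABP1. PSME1 was at 297 TPM with CRABP1 and 295 TPM with vector in 8505C, and at 217 TPM with CRABP1 and 208 TPM with vector in FTC-133. It had ratios of 1.004 (0.951 to 1.06) in 8505C and 1.04 (0.982 to 1.11) in FTC-133, and PSME2 1.05 (0.966 to 1.14) in 8505C and 1.10 (1.03 to 1.17) in FTC-133. The trimming aminopeptidase ERAP1 had ratios of 0.957 (0.896 to 1.02) in 8505C and 1.15 (1.08 to 1.23) in FTC-133. Its relative ERAP2 was at 234 TPM with CRABP1 and 241 TPM with vector in 8505C (0.969, 0.941 to 0.998), and at 8.73 TPM with CRABP1 and 7.03 TPM with vector in FTC-133 (1.24, 1.06 to 1.46). Of 17 genes of the constitutive proteasome and its other activators, 9 were higher and 8 lower in 8505C, and 9 higher and 8 lower in FTC-133, with 0 past 2-fold and median differences of 0.03 and 0.01.

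The 6 class II chains of the set were at low levels and were read almost only in FTC-133. HLA-DRA (chromosome 6, 32439842 to 32445046, plus strand), the alpha chain of HLA-DR, had no read in 8505C, and about 25 reads and 3.66 TPM with CRABP1 in FTC-133, against about 3 reads and 0.443 TPM with vector. Its ratio of 8.25 has a wide interval (2.62 to 44.5), and the gene passed the 1 TPM minimum only through the library with CRABP1. HLA-DRB1, the beta chain, had no read in 8505C and about 18 and 8 reads in FTC-133 (2.78 and 1.196 TPM with CRABP1 and vector, ratio 2.32, 0.960 to 6.17). HLA-DPA1 was the best read chain, at 0.0686 TPM with CRABP1 and 0 TPM with vector in 8505C, and at 8.01 TPM with CRABP1 and 5.59 TPM with vector in FTC-133 (1.43, 1.18 to 1.75), and HLA-DPB1 had about 18 and 12 reads (1.52, 0.705 to 3.52). HLA-DPB1, like HLA-DRA, reached the minimum only through the library with CRABP1. Intervals excluded 1 for HLA-DRA and HLA-DPA1 and included it for HLA-DRB1 and HLA-DPB1. HLA-DQA1 and HLA-DQB1 had no read in any library, which allows up to 0.0854 and 0.121 TPM in 8505C with CRABP1, the level of 3 reads. In 8505C the 6 class II chains had 3 reads in all with CRABP1 and 0 with vector.

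Genes that act after class II chains are made did not move together in FTC-133. CD74 (chromosome 5, 150401637 to 150412929, minus strand), the invariant chain that blocks the peptide groove and steers class II to endosomes, had about 1 read with CRABP1 and 5 with vector in 8505C. In FTC-133 it was at 32.2 TPM with CRABP1 and 14.8 TPM with vector, from about 542 and 257 reads, for a ratio of 2.17 (1.87 to 2.53). HLA-DMB, a subunit of the peptide exchange factor HLA-DM, had no read in 8505C and was at 6.98 TPM with CRABP1 and 11.1 TPM with vector in FTC-133 (0.629, 0.517 to 0.763). Its partner HLA-DMA was at 4.07 TPM with CRABP1 and 3.51 TPM with vector in 8505C (1.16, 0.763 to 1.77), and at 18.3 TPM with CRABP1 and 20.3 TPM with vector in FTC-133 (0.902, 0.754 to 1.07). Cathepsin S, the CTSS protease that trims CD74, was at 3.34 TPM with CRABP1 and 3.43 TPM with vector in 8505C (0.975, 0.696 to 1.37), and at 53.9 TPM with CRABP1 and 60.5 TPM with vector in FTC-133 (0.891, 0.824 to 0.963). The lysosomal thiol reductase IFI30 had no read in 8505C, and about 18 reads with CRABP1 and 13 with vector in FTC-133. Within class II in FTC-133, HLA-DRA and CD74 were past 2-fold higher, while HLA-DMB and CTSS had intervals below 1. Of 14 other class II and endosomal genes, 10 were measured in 8505C (6 higher, 4 lower, median 0.05) and 9 in FTC-133 (7 higher, 2 lower, median 0.31), with 0 past 2-fold in either line. Among them HLA-DOB, a chain of the HLA-DM inhibitor HLA-DO, had the opposite line order to the class II chains. It was at 3.91 and 3.10 TPM in 8505C and 0.481 and 0.280 TPM in FTC-133, with CRABP1 and vector in that order. The other HLA-DO chain, HLA-DOA, had the line order of the class II chains. HLA-DOA had no read in 8505C and was at 1.14 TPM with CRABP1 and 0.461 TPM with vector in FTC-133.

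Of the 4 measured transcriptional regulators, 2 were higher and 2 lower with CRABP1 in 8505C, and all 4 were higher in FTC-133. NLRC5 was at 3.52 TPM with CRABP1 and 4.63 TPM with vector in 8505C (0.759, 0.635 to 0.907), and at 6.75 TPM with CRABP1 and 5.35 TPM with vector in FTC-133 (1.26, 1.09 to 1.45). NLRC5 thus had its lowest level in 8505C with CRABP1 and its highest in FTC-133 with CRABP1. CIITA, the master regulator of class II, was at 0.228 TPM with CRABP1 and 0.218 TPM with vector in 8505C (1.05, 0.566 to 1.94), and at 1.06 TPM with CRABP1 and 0.549 TPM with vector in FTC-133 (1.93, 1.41 to 2.67), from about 116 and 62 reads. CIITA stayed under the minimum of 1 TPM in both lines and is in no count. RFX5, the DNA-binding RFX subunit, was at 33.2 TPM with CRABP1 and 28.4 TPM with vector in 8505C (1.17, 1.05 to 1.30), and at 75.7 TPM with CRABP1 and 70.6 TPM with vector in FTC-133 (1.07, 1.004 to 1.15). Among the members, RFX5 alone had an interval above 1 in both lines. That call rests on a lower bound of 1.004 in FTC-133 and on TPM as deposited. Median-ratio factors of 1.09 with CRABP1 and 1.04 with vector in FTC-133 would lower its ratio by more than that margin. In 8505C the factors were 0.958 with CRABP1 and 0.942 with vector. This scaling would also take the lower bounds of PSME2 in FTC-133 (1.03) and RFXAP in 8505C (1.01) below 1. The interval counts were made on TPM as deposited and were not repeated with this scaling. RFXAP was at 20.2 TPM with CRABP1 and 16.5 TPM with vector in 8505C (1.23, 1.01 to 1.49), and at 23.997 TPM with CRABP1 and 22.5 TPM with vector in FTC-133 (1.07, 0.904 to 1.26). RFXANK had ratios of 0.932 (0.788 to 1.10) in 8505C and 1.25 (1.09 to 1.44) in FTC-133. Of 12 other factors that act on HLA promoters, 7 were higher and 5 lower in 8505C (median 0.04), and 6 higher and 6 lower in FTC-133 (median 0.03), with 0 past 2-fold.

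In FTC-133 with CRABP1, most measured genes of interferon gamma signalling stood above their vector level, and IFNG itself had no read in any library. Of 20 listed genes, 12 were measured in 8505C, where 5 were higher and 7 lower with CRABP1 (median -0.12), and 17 in FTC-133, where 15 were higher and 2 lower (median 0.35), beside the 57.8% of all genes that were higher there. IRF1, an activator of class I genes, was at 15.7 TPM with CRABP1 and 15.2 TPM with vector in 8505C, and at 39.6 TPM with CRABP1 and 19.8 TPM with vector in FTC-133 (2.00, 1.84 to 2.18). The signalling inhibitor SOCS3 was lower in both lines, with ratios of 0.636 (0.559 to 0.722) in 8505C and 0.575 (0.493 to 0.671) in FTC-133. PTPN2, also an inhibitor among the 20 listed genes, was lower in 8505C (0.830, 0.735 to 0.938) but higher in FTC-133 (1.25, 1.13 to 1.37). By the 2-fold rule, GBP2 was lower in 8505C, at 0.901 TPM with CRABP1 and 2.86 TPM with vector, and GBP4 was higher in FTC-133, at 9.01 TPM with CRABP1 and 1.85 TPM with vector (4.86, 3.67 to 6.48). Both are interferon-induced GTPases. GBP2 reached 1 TPM on average in 8505C only through the library with vector, and so had to count as lower. For the same reason CXCL10 had to count as higher in FTC-133, at 2.26 TPM with CRABP1 and 0.782 TPM with vector. SOCS1, a further inhibitor, had to count as lower there, at 0.633 TPM with CRABP1 and 2.05 TPM with vector. In 8505C, SOCS1 was at 0.110 TPM with CRABP1 and 1.42 TPM with vector, from about 1 and 13 reads (0.0772, 0.00182 to 0.514). It averaged under 1 TPM in 8505C and is not counted there. Of 12 stress ligands and class I-like genes, 9 were measured in 8505C (5 higher, 4 lower, median 0.18) and 10 in FTC-133 (4 higher, 6 lower, median -0.13), with 0 past 2-fold.

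Over both lines, limma, fitted with line and transfection as terms on the 19513 genes that average 1 TPM or more over all libraries, called 0 of 29 tested members at an adjusted p of 0.05. The lines act as the replicates in that fit, which leaves 1 residual degree of freedom, and it called 1 gene of all tested (0.00512%), CRABP1 itself. Among the members, 0 had an unadjusted p under 0.05, against 923 of all genes, and the smallest adjusted p of a member was 0.92. Opposite responses of the lines average out in this fit and widen its error, as for HLA-B (0.24, SE 0.319). The fit could thus hardly call the 9 members with an interval below 1 in 8505C and above 1 in FTC-133. The count of 0 does not show that these members were unchanged within a line. The median member difference was 0.11, against 0.04 over all genes. A test of whether the CRABP1 response differs between the lines leaves no residual degree of freedom and was not made.

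The largest differences between the lines among these genes were in class II genes, CTSS and ERAP2. In the same limma fit, 3 of 29 members were higher in 8505C with an adjusted p under 0.05 and a 2-fold difference, where 7.99% of all genes were, and 6 were lower, where 15.6% were. The transfections act as the replicates here, and the fit takes out the CRABP1 difference that the lines share. These p-values thus rest on how far the line difference changes between the transfections, and on the variance trend over all genes. They do not measure a spread between replicate cultures. ERAP2 had the largest positive difference in 8505C, 4.75 on the log2(TPM + 1) scale (SE 0.132, adjusted p = 0.00336), and a plain ratio of 26.7 (24.01 to 29.9) with CRABP1 and 34.3 (30.5 to 38.7) with vector. HLA-E was higher by 1.82 (SE 0.278, adjusted p = 0.0205) and CANX by 1.07 (SE 0.106, adjusted p = 0.00988). On the other side, CTSS differed by -3.73 (SE 0.137, adjusted p = 0.00342) and RFX5 by -1.23 (SE 0.105, adjusted p = 0.00811), and HLA-DMA by -2.08 (SE 0.178, adjusted p = 0.00805). CD74 at -4.31, HLA-DMB at -3.30 and HLA-DPA1 at -2.90 also passed, but these 3 genes entered the test through their FTC-133 levels alone and had to differ. HLA-DMB, with no read in 8505C, was at least 55.0-fold lower there with CRABP1 and 87.7-fold lower with vector, taking 3 reads per 8505C library as the floor. HLA-DRA also entered the test through FTC-133 alone, at 3.66 TPM with CRABP1 and 0.443 TPM with vector there. It did not pass (-1.37, SE 0.608, adjusted p = 0.161). The activator subunits went opposite ways below 2-fold, PSME1 at 0.48 (SE 0.0925, adjusted p = 0.0321) and PSME2 at -0.62 (SE 0.0956, adjusted p = 0.0207).

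**Figure D4:**
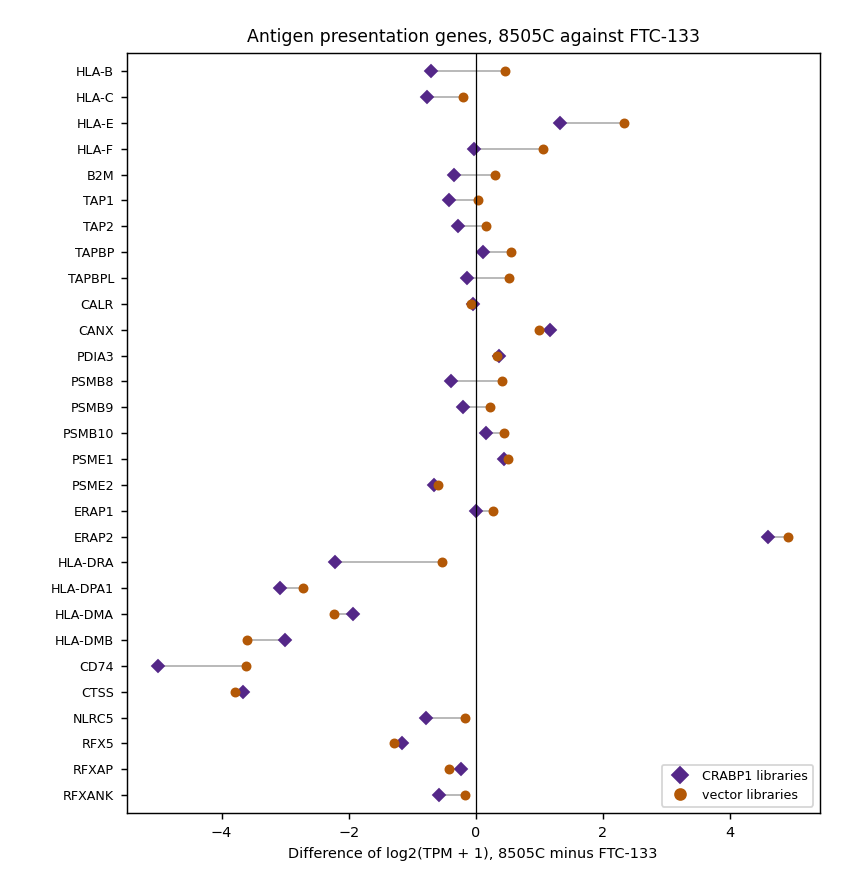
Difference of log2(TPM + 1), 8505C minus FTC-133, for the 29 tested members, with diamonds for the CRABP1 libraries and circles for the vector libraries. ERAP2 lies near 5 on the right and class II genes on the left with either transfection, while HLA-B, B2M and PSMB8 change sides between the vector and CRABP1 libraries.

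The order of the lines for several class I genes depended on the transfection. With CRABP1, 8505C had 0.610 times the HLA-B level of FTC-133 (0.577 to 0.643), and with vector 1.38 times (1.30 to 1.46). The same held for B2M, at 0.789 times with CRABP1 (0.772 to 0.807) and 1.24 times with vector (1.21 to 1.26), and for PSMB8, at 0.758 times with CRABP1 (0.682 to 0.842) and 1.34 times with vector (1.21 to 1.49). The median difference over the 29 members was -0.34 between the CRABP1 libraries and 0.17 between the vector libraries. In the joint fit it was -0.07, against -0.19 over all genes. That shift of all genes was -0.04 after median-ratio scaling, which put the median of the members tested at 0.10. The same scaling moved the share of higher genes among all calls to 48.0%, against 37.0% with TPM as deposited. HLA-E stood at 1.54 times HLA-C in both 8505C libraries, and at 0.360 times with CRABP1 and 0.264 times with vector in FTC-133.

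Some levels are uncertain in themselves. Reads of near-identical HLA genes can be split or lost in counting, in particular among HLA-B, HLA-C, HLA-F and HLA-G and between HLA-DRB1 and HLA-DRB5. No strand setting is given, so reads of overlapping genes cannot be told apart, as for PSMB8, which shares 20.62% of its exon bases with PSMB8-AS1, and CIITA, which shares 11.64% with DEXI. IFI30, PSMB10 and TAP2 share 40.19%, 34.75% and 32.3% of their exon bases with another gene on the same strand, whose reads a strand setting would not separate.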

How the data were processed

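RNA of 4 libraries was measured, 1 per group, and grouped by the titles. The authors deposited TPM values for 58884 genes, with a total of 1000000 in each column. The build GRCh38 and the tools featureCounts 2.0.0, Trimmomatic 0.38 and FastQC are named in the submitters' processing notes. Which aligner, annotation and strand setting the authors used is not given in the sources used here.

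TPM multiplied by GENCODE 29 union exon length gave reads. Of values up to 50 reads, 90.5% to 91.6% lay within 0.02 of a whole read. This held in every library for 16 of 36 members, so the reads of the others are approximate. Ratios with 95% Clopper-Pearson intervals, log2(TPM + 1) differences, a 2-fold rule at a mean of at least 1 TPM, and limma 3.58.1 (R 4.3.3, mean-variance trend, two-sided, Benjamini-Hochberg over all genes) followed, with Python 3.11.15 and SciPy 1.17.1. A pseudocount of 1 understates ratios of low genes. The fit was first run on simulated data with the same CRABP1 fold change in both lines. That setting holds no opposite responses of the lines, so it does not show how the fit handles them.

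The members and lists were chosen with earlier results of these data known. Values in every library are given for NLRC5, CIITA, RFX5, members past 2-fold, the 6 largest differences per line and the most abundant member of each role. Other members, HLA-DOA, HLA-DOB, the interferon genes not past 2-fold and the markers named are given where a comparison uses them, chosen after their values were seen. Alternatives were a pseudocount of 0.1, no filter, 5 TPM, median-ratio scaling, removal of mitochondrially encoded genes, a 1.5-fold rule, summed identifiers, protein-coding genes with at least 20 reads, no trend and no second term. 1 gene is not reported here by name.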

Additional observations from a re-analysis of the deposited data

Results flagged for a closer look

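For 9 of the 25 members measured in both lines, the counting interval of the CRABP1 ratio lay below 1 in 8505C and above 1 in FTC-133, against 4.59% of all genes measured in both lines and 5.89% of the protein-coding ones; the difference between the lines was not tested, because 1 library per group leaves no residual degree of freedom. The log2(TPM + 1) difference with CRABP1 in 8505C minus that in FTC-133 was -1.17 for HLA-B, -1.01 for HLA-E, -1.08 for HLA-F, -0.56 for HLA-C and -0.65 for B2M. It was -0.81 for PSMB8, -0.44 for TAPBP, -0.60 for NLRC5 and -0.32 for ERAP2. No member had the reverse pattern, with an interval above 1 in 8505C and below 1 in FTC-133.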

How the results depend on the processing

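In FTC-133, the number of members higher by the fold rule was 2, and it was 1 at a mean of at least 5 TPM, since HLA-DRA is under that minimum, 3 with a pseudocount of 0.1, where HLA-DRB1 joined, and 6 with a 1.5-fold threshold, where 1 was lower. The counts in 8505C and the median differences in both lines kept their direction under every alternative run. Between 8505C and FTC-133, members past the adjusted p and 2-fold numbered 1 higher and 3 lower without a filter, against 3 and 6. Without the test, 4 rather than 7 were 2-fold lower at 5 TPM. The median member difference between the lines turned to 0.10 with median-ratio scaling and 0.17 in the vector libraries alone, and was -0.34 in the CRABP1 libraries alone. HLA-E did not pass without a trend or a filter (adjusted p over the alternatives 0.0127 to 0.0889), and CANX, CD74, HLA-DMB and HLA-DPA1 did not pass without a filter; PSME1 and PSME2 did not pass in either, nor PSME1 without mitochondrially encoded genes. The cause was not tested. Over both lines 0 members passed in any alternative, also in the fit that dropped the line as a block; CRABP1 itself was called at 5 TPM and in no other alternative. That joint fit pairs CRABP1 and vector by cell line; no other pairing can be made, since each group holds 1 library and the labels carry no replicate numbers. Each identifier was unique, so summing identifiers changed nothing. With 1 library per group, differences within a line have no replicate error, and class II chains under 30 reads limit what a ratio can show.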
